A study of Mus musculus with 7 samples.

Results

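The genes examined here control the division and joining of mitochondria: Mff, Dnm1l, Fis1, Mief1, Mtfp1, Mtfr1, Mfn1, Mfn2, Opa1 and Oma1. They were chosen by name, with their genotype differences already known, and every noncontrol probe that the array files assign to one of these 10 symbols was taken. The array names 37074 genes or transcripts in all. The 10 genes had 25 of its 56605 noncontrol probes. Of the 25, 22 were among the 34284 probes whose gland signal rose well above background in every gland of 1 genotype or of both, and each of the 10 genes had such a probe.

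RNA was measured from single abdominal mammary glands of 7 FVB mice, 3 wild-type and 4 PRA transgenic, with 1 animal per array. All were nulliparous females of 20 to 25 weeks taken at diestrus, without any treatment, and lymph nodes were excised before the gland was frozen. PRA transgenic mice overexpress the A form of the progesterone receptor. They carry the transactivator GAL-4 under the murine cytomegalovirus promoter, a viral promoter that is not specific to the mammary gland, and a GAL-4-dependent PR-A gene. Gland RNA was labeled with Cy5 on every array and a reference pool of RNA from 11 mouse cell lines with Cy3. No array had the dyes swapped, so a log2 ratio here is gland over reference and a difference in log2 ratio is PRA transgenic minus wild-type.

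Mitochondria form a network that is continually cut and rejoined. In fission, adaptor proteins of the outer membrane (Mff, Fis1 and Mief1) recruit the cytosolic dynamin-related GTPase encoded by Dnm1l, also called Drp1, which constricts the organelle. In fusion, the mitofusins Mfn1 and Mfn2 join outer membranes and Opa1 joins inner membranes, and the protease Oma1 cleaves Opa1 under stress. The mammary gland of an adult virgin mouse is mostly adipose tissue with a sparse epithelial tree, and both tissues supply the RNA measured here.

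The gland label was checked against marker genes. The luminal keratin Krt8, the basal keratin Krt14, the adipocyte hormone Adipoq and the brown fat uncoupling protein Ucp1 were well above background in all 7 glands. The Ucp1 signal was uneven. In log2 Cy5 it read 11.36, 9.18 and 12.40 in wild-type replicates 1 to 3. In PRA transgenic replicates 1 to 4 it read 11.76, 12.47, 11.84 and 7.57. Skeletal muscle RNA was also unevenly present. The mean log2 ratio of the 14 measured markers of a 15-gene muscle list was 2.43, -0.24 and 3.48 in wild-type replicates 1 to 3 and 0.00, -0.17, -0.01 and 3.26 in PRA transgenic replicates 1 to 4, and muscle creatine kinase (Ckm) was above background in the 3 high glands only. Wild-type replicate 1 also had the highest T cell and B cell list means, at 1.85 and 1.58. None of the 9 marker lists separated the genotypes at an exact permutation p under 0.05 (two-sided, smallest possible p 0.0286). The lists use log2 ratios, in which Ucp1 varied less than in Cy5 (4.67 to 5.77), so they can miss a difference seen in Cy5. In bulk tissue, fewer cells of a type and less RNA per cell cannot be told apart. All 7 arrays lay on 1 slide, wild-type in row 1 and PRA transgenic in row 2, so the position on the slide and the genotype cannot be told apart. The share of probes with a spot well above background was 62.7% to 66.2% in the wild-type and 56.6% to 60.2% in the PRA transgenic glands in Cy5, and 53.2% to 54.0% against 47.2% to 50.6% in the reference, which held the same RNA on every array. Its part in the differences below was not tested.

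Mff, the mitochondrial fission factor, carries the largest genotype difference of all member probes, and it does so at 1 of its probes only. The array has 5 Mff probes on the plus strand of chromosome 1, and their positions in the files are those of mouse build mm9. Probe A_55_P2739683 is split over chr1:82727811-82743670, a span of 15860 bases for a probe of 60, so that it joins separate pieces of the gene. Probe A_52_P639540 lies at chr1:82733077-82733136. The other three lie close together at the 3′ end of the gene: A_66_P136234 at chr1:82748286-82748345, A_55_P1962139 at chr1:82748724-82748783 and A_55_P2498056 at chr1:82748825-82748884. Only 41 bases separate the last pair. No mm9 annotation was used here, so exon and UTR status is not stated. The files list A_55_P2498056 and A_66_P136234 with the same RefSeq transcript of Mff, and A_55_P1962139 with cDNA and EST records only. The sequences of the 4 measurable Mff probes are shown because the result depends on which stretch of the gene was probed. They are written 5′ to 3′ in the sense of the gene, whole for the split probe and as the first 30 of 60 bases for the 3 probes at the 3′ end.
A_55_P2739683: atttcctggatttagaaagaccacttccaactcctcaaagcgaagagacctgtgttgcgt
A_66_P136234: cgctagaggtaacctcagcattcacatata
A_55_P1962139: gctttctaagtcacagtgctgtacaggact
A_55_P2498056: cagtctgtctgtgtgcaatgctgttttgac

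At the last Mff probe, A_55_P2498056, the log2 ratio was -0.70, -0.69 and -0.80 in wild-type replicates 1 to 3 and 0.25, 0.58, 0.77 and 0.54 in PRA transgenic replicates 1 to 4. Every PRA transgenic gland lay above every wild-type gland, wild-type glands were below the reference and PRA transgenic glands above it. The means were -0.73 ± 0.06 (SD, n = 3) and 0.53 ± 0.21 (SD, n = 4), and the difference was 1.26 with a limma standard error of 0.15, or 2.40-fold. The Cy5 signal behind it was 2187, 2513 and 2068 intensity units in the wild-type and 3757, 4547, 5426 and 4721 in the PRA transgenic glands. The Cy3 signal of the reference was 3542 to 4059 on the wild-type and 3048 to 3257 on the PRA transgenic arrays. With each array scaled to its own upper quartile, the difference was 1.23 in Cy5 alone and -0.02 in Cy3 alone, so it lay in the gland channel. All of these values belong to the contrast by which the gene was chosen and are a description. Wild-type replicates 1 and 3 and PRA transgenic replicate 4 were the glands high in muscle markers. The difference was 1.26 without PRA transgenic replicate 4, and the part of muscle RNA in it was not tested.

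The neighboring Mff probe, A_55_P1962139, gave log2 ratios of 0.14, 0.06 and -0.04 in wild-type glands and 0.19, 0.05, 0.12 and -0.07 in PRA transgenic glands. The genotypes overlapped throughout, and the difference was 0.02 ± 0.12 (limma SE). At A_66_P136234, the wild-type log2 ratios were -0.26, -0.29 and -0.23 and the PRA transgenic ones -0.14, -0.03, -0.00 and -0.38. The PRA transgenic glands were slightly higher except replicate 4, which was the lowest of all, and the difference was 0.12 ± 0.13 (limma SE), or 0.20 without replicate 4 and 0.08 without replicate 3. Both probes were bright in every gland, with Cy5 signals from 1389 to 2306 intensity units.

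**Figure D1:**
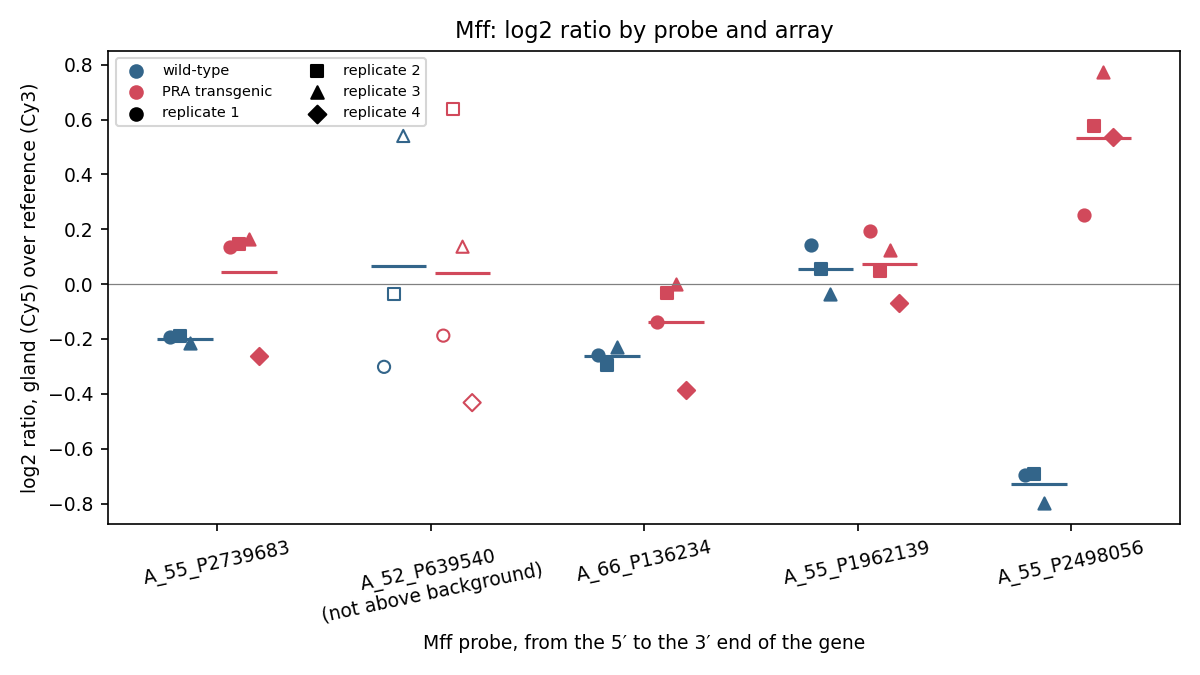
Log2 ratio of gland over reference for the 5 Mff probes, ordered along the gene, with 1 point per array, blue for the 3 wild-type and red for the 4 PRA transgenic glands, marker shape for the replicate and a bar for the group mean. Open points mark the probe that was not above background on any array. The genotypes are apart by 1.26 at A_55_P2498056 and overlap at the other probes.

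The split probe, A_55_P2739683, gave -0.19, -0.19 and -0.22 in wild-type glands and 0.13, 0.15, 0.16 and -0.26 in PRA transgenic glands. PRA transgenic replicates 1 to 3 were above the wild-type, and replicate 4 lay below every other gland. The difference was 0.25 ± 0.14 (limma SE) over all arrays and 0.35 without replicate 4. That gland was the only PRA transgenic one with high muscle markers (list mean 3.26), and the part of muscle RNA in its low value was not tested. Wild-type replicates 1 and 3, also high in muscle markers, had the same value here as wild-type replicate 2 to within 0.03. With Cy5 alone, scaled as above, the difference at this probe was 0.42 and the genotypes did not overlap. The gap was narrow, with PRA transgenic replicate 4 at 1.048 and wild-type replicate 1 at 1.043 (scaled log2 Cy5). In unscaled Cy5 the genotypes overlapped, with a log2 difference of 0.21. The scaled reference signal of the same probe also differed, by 0.18.

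Probe A_52_P639540 was not well above background in either channel on any array, and its Cy5 signal ranged from 2.64 to 7.24 intensity units. It therefore gives no value for Mff.

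Set against each other on the same array, the last Mff probe and its neighbors shifted with genotype. The log2 ratio of A_55_P2498056 minus that of A_55_P1962139 was -0.84, -0.75 and -0.76 in the wild-type and 0.06, 0.53, 0.65 and 0.60 in the PRA transgenic glands. No gland of one genotype reached the range of the other, and the shift was 1.24. The shift was 1.14 against A_66_P136234 and 1.02 against the split probe, again without overlap between the genotypes. Across the array, 5451 genes had at least 2 probes that were measurable in Cy5 and in Cy3 on each of the 7 arrays. The spread between the highest and lowest genotype difference among a gene's probes had a median of 0.19 over these genes. For Mff, with 4 such probes, it was 1.24, and 15 of the 5451 genes (0.275%) had a spread at least that large. The other members with several such probes had 2 each, and their spreads were 0.05 for Fis1, 0.05 for Mtfr1, 0.07 for Mfn2 and 0.02 for Opa1. A spread of this kind grows with the number of probes, which was not matched in either comparison. The Mff probes were also chosen to be set against each other with their differences known, so the place of Mff among all genes is a description.

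**Figure D2:**
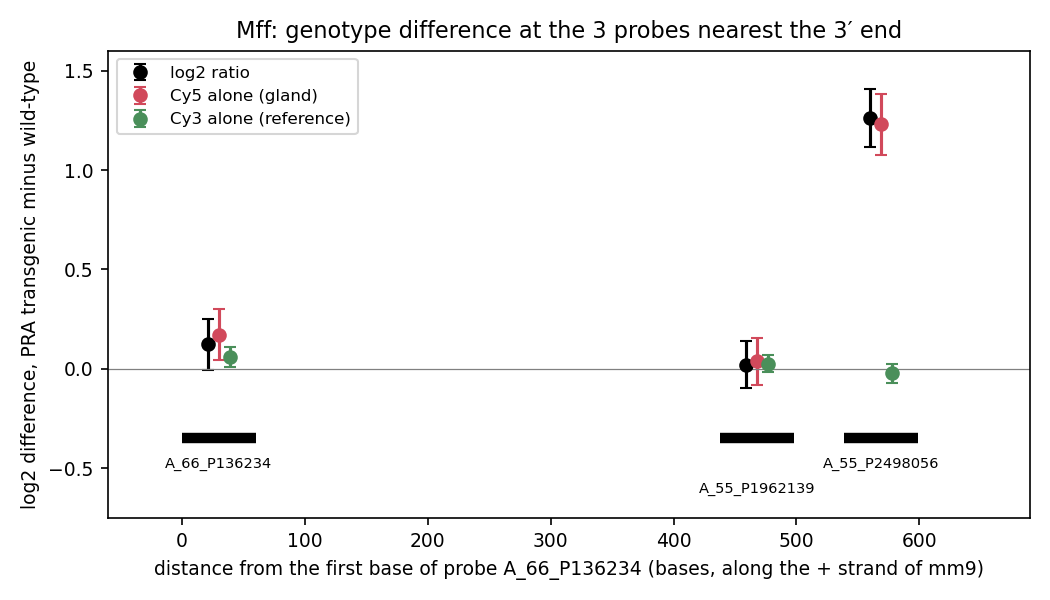
Genotype difference (log2, PRA transgenic minus wild-type, bars are limma standard errors) at the 3 Mff probes nearest the 3′ end, against distance in bases from the start of A_66_P136234. Black bars below show the probes to scale, and the points of each probe are set slightly apart sideways for legibility. The log2 ratio and Cy5 alone are near 1.2 at the last probe and near 0 at the probe that ends 41 bases before it, and Cy3 alone is near 0 at all 3.

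The genes whose pattern over the 7 arrays was most like each Mff probe were found by the root mean square difference of log2 ratios centered on their mean, over 16777 genes each represented by its brightest probe. For A_55_P2498056 they were Zfp933, Sox14 and Guca1a, at distances of 0.23 to 0.24. Their genotype differences were 0.99, 1.07 and 1.27, but with Cy5 alone that of Sox14 was -0.14. For A_55_P1962139 the nearest genes were Ggnbp2, Map2k4 and Ube2o, for A_66_P136234 Polr2e, Eif4e and Mrpl21, and for the split probe Atg2b, Dgcr6 and Vps45. Those 9 lay at distances of 0.03 to 0.05, and none of them separated the genotypes. The genes were picked by likeness over these same 7 arrays, so their genotype differences in log2 ratio largely follow from the choice.

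Outside Mff no member probe separated the genotypes in log2 ratio. Over the 22 measured member probes the difference was positive at 20 and negative at 2, and 13 lay within 0.2 of zero. The median was 0.14, against 0.02 over all 34284 probes. The share of positive differences over all probes was not taken, and probes of the same gene are not independent. By the limma fit 1 member probe, A_55_P2498056 of Mff, was higher at an unadjusted p under 0.05 (4.54% of all probes were) and none was lower (4.48%). None passed a Benjamini-Hochberg adjusted p of 0.05, which 4 of all probes (0.0117%) did. The genotypes did not overlap at that same Mff probe, higher in PRA transgenic glands (5.41% of all probes), and at none in the lower direction (4.52%). With Cy5 alone, scaled to each array's upper quartile, the genotypes did not overlap at 3 member probes, all higher (4.93% of all probes). These were A_55_P2498056 and A_55_P2739683 of Mff and A_51_P291866 of Fis1. Of these, only A_55_P2498056 was also without overlap in unscaled Cy5. No member probe was lower without overlap in Cy5 (4.72%). By the limma fit of Cy5 alone 3 member probes were higher at an unadjusted p under 0.05 (4.17% of all probes), both of these Mff probes and A_55_P2172747 of Mfn2, none was lower (4.56%), and none passed the adjusted threshold, which 5 of all probes (0.0146%) did. The members were chosen with this contrast in view, so these counts are a description.

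**Figure D3:**
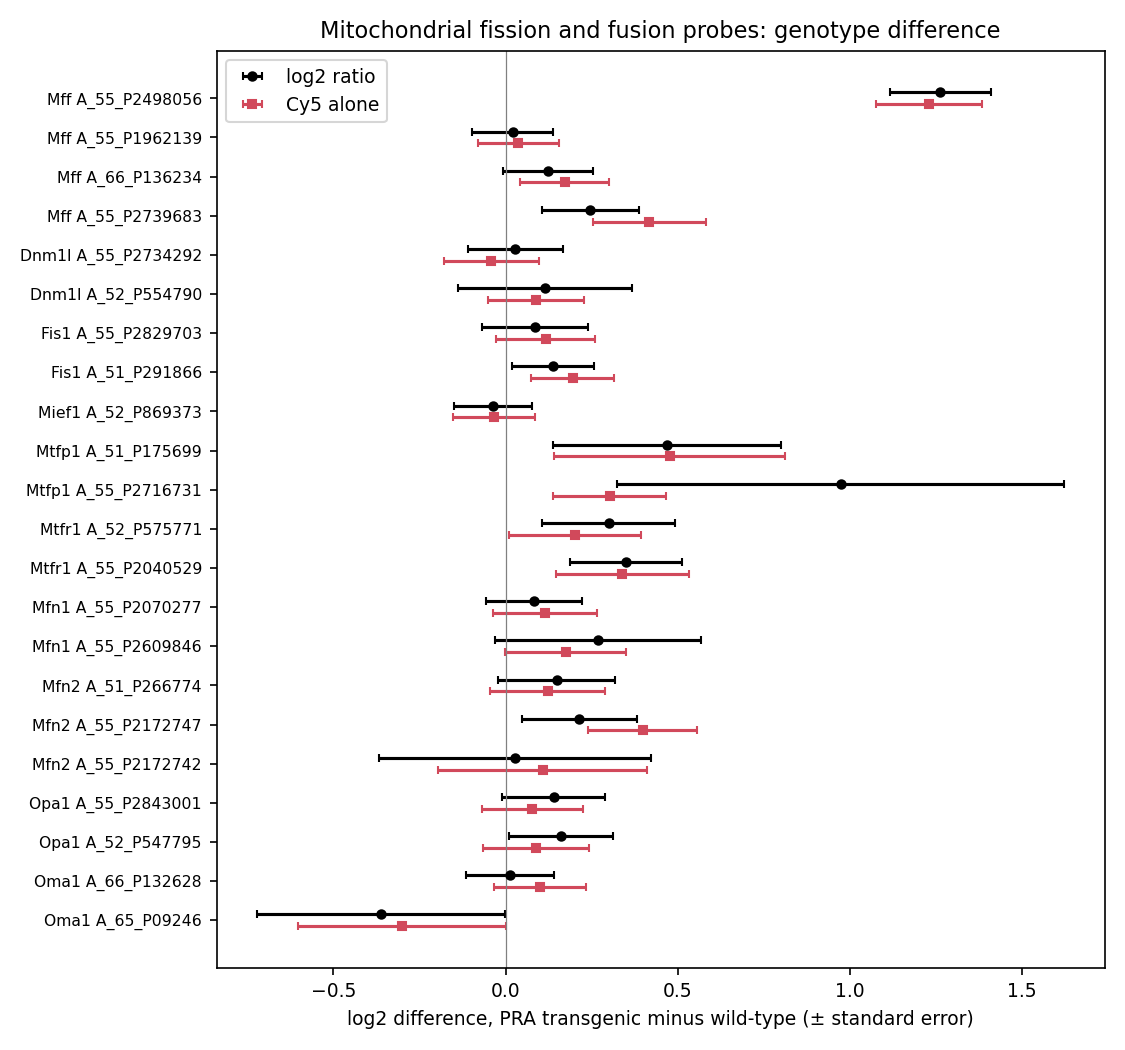
Genotype difference (log2, PRA transgenic minus wild-type) of the 22 measured member probes, black for the log2 ratio and red for Cy5 alone, with limma standard errors. Mff probe A_55_P2498056 stands at 1.26. In the log2 ratio, dim probes have wide bars, and so does the bright Mtfp1 probe A_51_P175699 (standard error 0.33).

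Dnm1l, the GTPase that Mff recruits, differed little between genotypes. Its bright probe A_55_P2734292 (chr16:16312363-16312422, minus strand) read -0.30, -0.12 and -0.22 in wild-type and -0.14, -0.22, 0.04 and -0.40 in PRA transgenic glands. The PRA transgenic range enclosed the wild-type range, and the difference was 0.03 ± 0.14 (limma SE). A second probe, A_52_P554790, was dim, with Cy5 signals of 27.3 to 37.7, and its difference was 0.11 ± 0.25 (limma SE).

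Fis1, an outer membrane fission adaptor, had 2 bright probes. A_55_P2829703 (chr5:137442037-137442096) gave 0.71, 0.94 and 0.63 in wild-type and 1.14, 0.68, 0.79 and 0.77 in PRA transgenic glands. All 7 glands were above the reference, by 1.75-fold on average, and the genotypes overlapped (difference 0.09 ± 0.15, limma SE). A_51_P291866, split over chr5:137441507-137441812, gave 0.10, 0.21 and 0.02 against 0.33, 0.16, 0.15 and 0.36. The genotypes overlapped by the 1 wild-type gland at 0.21, and the difference was 0.14 ± 0.12 (limma SE). At this probe the scaled log2 Cy5 levels did not overlap, with a difference of 0.19. The gap was narrow, with wild-type replicate 2 at 2.62 and PRA transgenic replicate 2 at 2.63. In unscaled Cy5 the genotypes overlapped, with a log2 difference of -0.01.

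Mief1, an outer membrane receptor for Drp1, was lower in the gland than in the reference on every array. Its measured probe A_52_P869373 (chr15:80083697-80083756) read -0.78, -0.55 and -0.56 in wild-type and -0.65, -0.68, -0.61 and -0.72 in PRA transgenic glands. The genotypes overlapped, and the difference of -0.04 ± 0.11 (limma SE) was the most precisely measured among the members. The other Mief1 probe, A_52_P443058, was not well above background in any gland.

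Mtfp1, an inner membrane protein that promotes fission, and Mtfr1, a mitochondrial fission regulator, had the next larger differences, with wide spread. Mtfp1 probe A_51_P175699 (chr11:3991559-3991618, minus strand) read 1.23, 0.86 and 1.22 in wild-type and 1.95, 1.63, 2.01 and 0.68 in PRA transgenic glands. PRA transgenic replicates 1 to 3 were the highest of all and replicate 4 the lowest. The difference was 0.47 ± 0.33 (limma SE), and 0.77 without replicate 4. That gland was the PRA transgenic one high in muscle markers, and its Ucp1 signal was the lowest of the 7 (log2 Cy5 7.57). Wild-type replicate 2, the lowest wild-type gland here, had the lowest wild-type Ucp1 signal (9.18). The brown fat list mean was also lowest in these glands, at 3.78 and 3.56. The 2 wild-type glands high in muscle markers were above wild-type replicate 2 here. The parts of muscle and brown fat RNA were not tested. The second Mtfp1 probe, A_55_P2716731, had a difference of 0.97 ± 0.65 (limma SE). Its Cy5 signal was only 15.9 to 23.9, its Cy3 signal was well above background on 1 array, wild-type replicate 3, and the difference was 0.27 without that array and 0.30 with Cy5 alone.

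Both Mtfr1 probes lie close together on chromosome 3, at chr3:19119311-19119370 and chr3:19119481-19119540. The first, A_55_P2040529, read -0.26, -0.63 and -0.36 in wild-type and 0.01, 0.19, -0.28 and -0.19 in PRA transgenic glands. PRA transgenic glands were mostly higher, but replicate 3 lay below wild-type replicate 1. The differences of the 2 probes were 0.35 ± 0.16 and 0.30 ± 0.19 (limma SE), and without PRA transgenic replicate 3 they were 0.42 and 0.43.

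Mfn2, the mitofusin that also tethers mitochondria to the endoplasmic reticulum, was above the reference in all 7 glands at each of its 3 probes. A_51_P266774 (chr4:147247695-147247748, minus strand) read 1.46, 1.69 and 1.25 in wild-type and 1.82, 1.35, 1.77 and 1.53 in PRA transgenic glands, 2.94-fold over the reference on average. The genotypes overlapped, and the difference was 0.15 ± 0.17 (limma SE). When each array was left out it ranged from 0.04 (without wild-type replicate 3) to 0.26 (without wild-type replicate 2). A_55_P2172747 (chr4:147248131-147248190) was 2.43-fold over the reference. Its difference was 0.21 ± 0.17 in the log2 ratio and 0.40 ± 0.16 with Cy5 alone (limma SE). The scaled reference signal of this probe also differed, by 0.19, without overlap between the genotypes. The dim probe A_55_P2172742 differed by 0.03 ± 0.39 (limma SE). Its Cy3 signal was well above background on only 1 array, so its level against the reference is uncertain.

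Mfn1, the other mitofusin, was close to the reference. A_55_P2070277 (chr3:32476215-32476274) read -0.34, -0.16 and 0.02 in wild-type and -0.22, 0.08, -0.01 and -0.16 in PRA transgenic glands. The genotypes overlapped, with a difference of 0.08 ± 0.14 (limma SE). The second probe, A_55_P2609846, was dim, with Cy5 signals of 19.9 to 30.7, and its difference was 0.27 ± 0.30 (limma SE).

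Opa1, the inner membrane fusion GTPase, was measured by a probe at chr16:29654613-29654672 (A_55_P2843001) and by one split over chr16:29629784-29630207 (A_52_P547795). A_55_P2843001 read 0.38, 0.55 and 0.47 in wild-type and 0.74, 0.46, 0.84 and 0.39 in PRA transgenic glands. Replicates 1 and 3 of the PRA transgenic mice were above all wild-type glands and the others among them. The genotype differences of the probes were alike, at 0.14 ± 0.15 and 0.16 ± 0.15 (limma SE). Their levels were not, at 1.46-fold of the reference on average for A_55_P2843001 and 0.91-fold for A_52_P547795. A further Opa1 probe, A_52_P153645, was not well above background in any gland.

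Oma1, the protease that cleaves Opa1, read 0.17, 0.39 and 0.46 in wild-type and 0.46, 0.24, 0.45 and 0.27 in PRA transgenic glands at A_66_P132628 (chr4:103038974-103039033). The genotypes overlapped fully, and the difference was 0.01 ± 0.13 (limma SE). The dim probe A_65_P09246 differed by -0.36 ± 0.36 (limma SE), and by -0.10 without PRA transgenic replicate 4, whose Cy5 signal of 16.4 was the lowest of the 7.

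**Figure D4:**
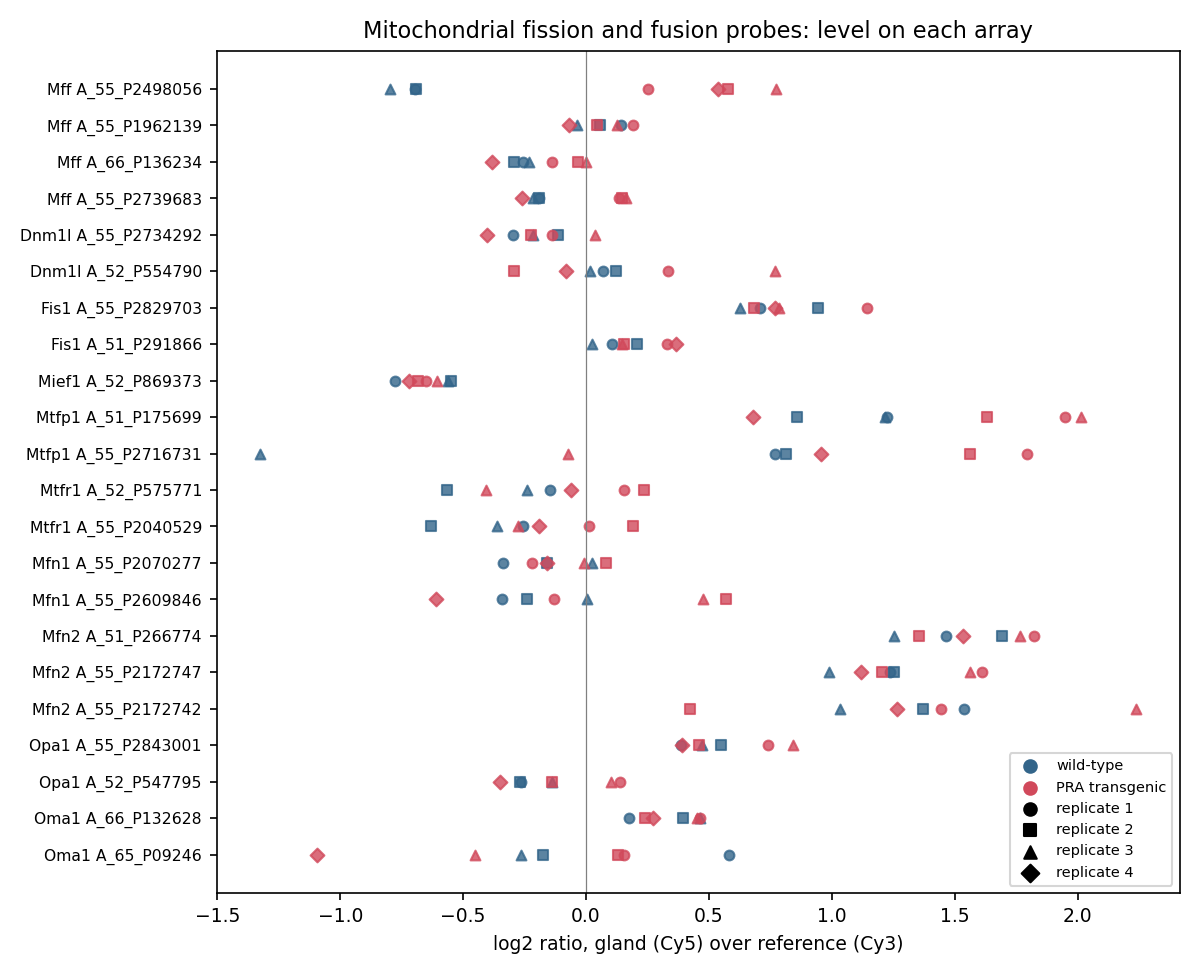
Log2 ratio of gland over reference at the 22 measured member probes, 1 point per array, blue for wild-type and red for PRA transgenic glands, marker shape for the replicate. Mfn2 and Fis1 lie above 0 and Mief1 below 0 in all 7 glands, and the genotypes are apart at 1 Mff probe only.

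Other genes of mitochondrial shape were described from a list of 42, of which 41 were measured, each by its brightest probe. None passed an adjusted p of 0.05 in the limma fit (lowest adjusted p = 0.317). At an unadjusted p under 0.05, 1 gene was higher in PRA transgenic glands and 2 were lower, against 3.24% and 4.54% of all 16798 named genes. The genotypes did not overlap at 2 genes in the higher and 2 in the lower direction (4.38% and 4.73% of all named genes), and the median difference was 0.02, against 0.00 over all named genes.

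Spire1, an actin nucleator of which a mitochondrial form promotes fission, had the largest difference of the list. Its log2 ratio was 0.31, 0.17 and 0.31 in wild-type and -0.45, -0.26, -0.37 and -0.62 in PRA transgenic glands. The genotypes did not overlap, and the difference was -0.68 ± 0.13 (limma SE, adjusted p = 0.317), or -0.49 with Cy5 alone.

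The remaining genes without overlap belong to the outer membrane bridge of the cristae organizing system (MICOS). Mtx2, an outer membrane import protein, read -0.03, 0.15 and 0.32 in wild-type and -0.12, -0.21, -0.34 and -0.58 in PRA transgenic glands. It was lower in every PRA transgenic gland, by -0.46 ± 0.16 (limma SE, adjusted p = 0.464), and its other measured probe gave -0.37. Dnajc11, a J-domain protein of the same bridge, read -0.20, -0.05 and -0.27 in wild-type and 0.27, 0.26, 0.31 and 0.17 in PRA transgenic glands. It was higher in every PRA transgenic gland, by 0.43 ± 0.11 (limma SE, adjusted p = 0.405), but its other probes gave differences from -0.31 to 0.25. Samm50, the outer membrane sorting and assembly channel, read -0.68, -0.68 and -0.83 against -0.63, -0.56, -0.31 and -0.63. The gap between the genotypes was small, and the difference was 0.20 ± 0.13 (limma SE, adjusted p = 0.700).

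Of the list's other roles, the median difference was -0.05 over 10 measured fission helpers, 0.15 over 5 fusion helpers, 0.03 over 6 inner membrane proteases and prohibitins, 0.08 over 11 MICOS and bridging genes, -0.02 over 5 genes of ubiquitin control and Pink1, and 0.05 over 4 transport genes. No gene among the fusion helpers, proteases, ubiquitin or transport genes separated the genotypes.

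**Figure D5:**
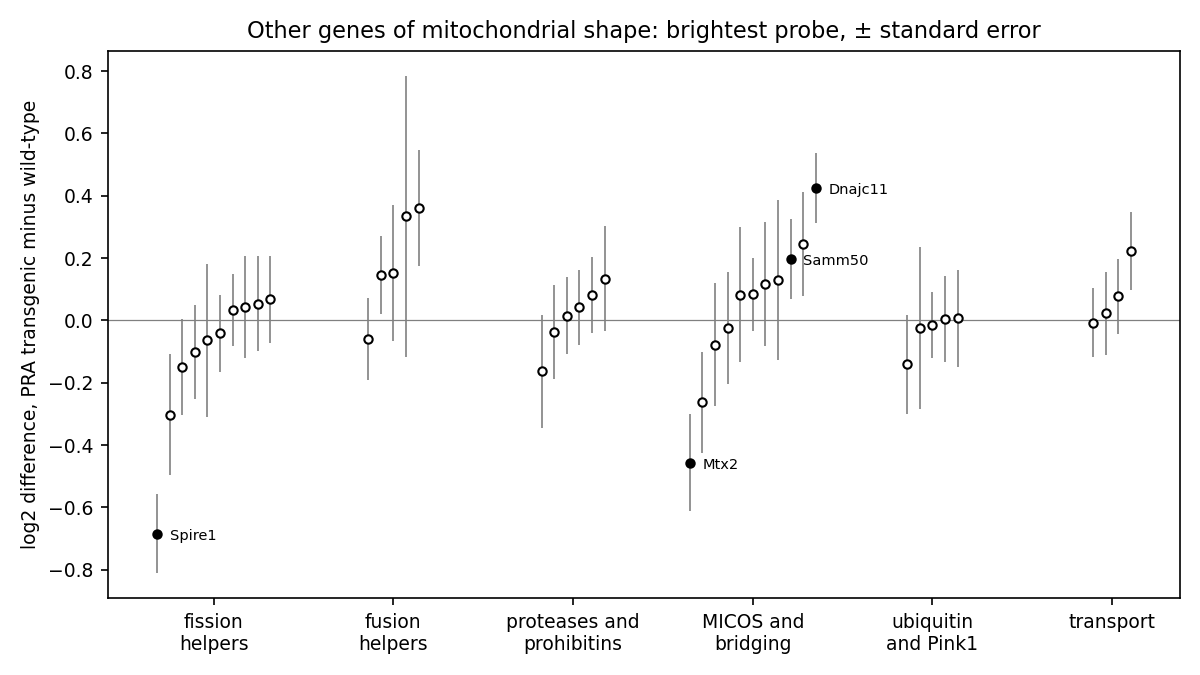
Genotype difference (log2 ratio, PRA transgenic minus wild-type, bars are limma standard errors) of the 41 measured genes of the list, grouped by role and sorted within a role. Filled points are the 4 genes whose genotypes did not overlap, from -0.68 for Spire1 to 0.43 for Dnajc11.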

How the data were processed

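Two-color Agilent arrays were scanned and extracted by the authors, with Agilent Feature Extraction 12.0 per the labels and 11.5.1.1 per the file headers. The deposited intensity values used here are the processed signals, which the software had background-subtracted and dye-normalized. The authors also deposited a table of log2 ratios, each probe centered over the arrays. It correlated at r = 1 with the centered log2 ratio of the processed signals on every array and was an alternative only. Control and outlier spots were left out, spots of a probe were averaged, and log2 of Cy5 over Cy3 was computed. A probe was used if Cy5 was well above background in every gland of 1 genotype or of both (34284 of 56605). Genotypes were compared in R 4.3.3 by moderated linear models (limma 3.58.1, lmFit followed by eBayes), with p-values adjusted over all probes used by the method of Benjamini and Hochberg. The steps were tested on simulated data. Gene symbols and positions (mm9) are those of the array files.

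The members and the lists were chosen with earlier results of these data known, so for the members differences and standard errors are given without p-values. All member probes are named, with the listed genes of largest difference whose genotypes did not overlap, the 3 nearest genes of each Mff probe and the markers Krt8, Krt14, Adipoq, Ucp1 and Ckm. The marker lists covered B and T cells, macrophages, endothelium, skeletal muscle, brown and white fat cells and both epithelial layers. Genotypes and replicate numbers came from the labels. Each array is 1 animal, and the number of arrays limits precision. Alternatives were normexp background correction with loess, the deposited log2 table, no filter, a filter on both channels, Cy5 alone, quantile normalization, the methods' unpaired test, weighted arrays, an intensity trend, a replicate block, leaving out each array, and the median over a gene's probes. Cy5 alone was scaled to the upper quartile of each array. No fit with a slide block was possible because all arrays shared 1 slide.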

Additional observations from a re-analysis of the deposited data

Results flagged for a closer look

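Of 35 groups of 4 PRA transgenic values examined, 2 held a value far from the other three, where chance gives about 1.75. At Mff probe A_55_P2739683, PRA transgenic replicate 4 lay at a log2 ratio of -0.26 and the others between 0.13 and 0.16, so that the gap took up 0.929 of the range of the group. In the skeletal muscle marker list the same gland lay at 3.26 and the others between -0.17 and 0.00, a gap of 0.949 of the range.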

How the results depend on the processing

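The difference at Mff probe A_55_P2498056 was 1.26, lay between 1.23 and 1.31 under the other settings, and between 1.18 and 1.36 when each array was left out. Of 369 recomputed member differences, 17 at 8 probes changed sign, all of them probes with a difference within 0.2 of zero, and 1 moved beyond its replicate spread (A_55_P2739683, 0.42 with Cy5 alone). The count of member probes higher at an unadjusted p under 0.05 was 1, and became 2 with no filter (Mief1 A_52_P443058 added) or quantile normalization (Mtfr1 A_55_P2040529), 3 with Cy5 alone (Mff A_55_P2739683 and Mfn2 A_55_P2172747) or the replicate block (both Mtfp1 probes), and 1 to 3 when each array was left out; it was 3 without PRA transgenic replicate 3 (both Mtfr1 probes) or replicate 4 (Mtfp1 A_51_P175699 and Mff A_55_P2739683). A_55_P2498056 was counted in every setting.

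Of all probes, 4 passed the adjusted threshold: 15 with no filter, 11 with array weights, 1 with the methods' unpaired test, 0 with the replicate block, and 1 to 12 when each array was left out (12 without PRA transgenic replicate 4, 1 without replicate 3, 2 without wild-type replicate 3). The unadjusted count of lower probes was 1535, 2924 with no filter and 997 with both channels filtered, and 1118 to 1861 when each array was left out; that of higher probes was 1558, and 1162 to 2372 (2372 without PRA transgenic replicate 4). Of the list of 42 genes, 1 was higher and 2 were lower at an unadjusted p under 0.05. The lower count was 1 with Cy5 alone, quantile normalization, the replicate block or the median over probes, and 1 to 3 when each array was left out (1 without wild-type replicate 2 or 3). The higher count was 3 with quantile normalization, 0 with the median over probes, and 1 to 2 when each array was left out (2 without PRA transgenic replicate 2 or 4). Same-numbered glands came from different animals, and the labels name no batch that they share. Those of replicates 1 and 2 lay in the same slide column. Same-numbered glands correlated at 0.0997, -0.297 and 0.0362 in their deviations, so the block was not used in the main fit. In the block, PRA transgenic replicate 4 has no same-numbered wild-type gland and adds nothing to the genotype difference. The block differences therefore equal those without that gland, as at Mtfp1 A_51_P175699 (0.77 in both), and these settings are not separate checks. Dim probes limit what can be said of Dnm1l A_52_P554790, Mfn1 A_55_P2609846, Mfn2 A_55_P2172742, Oma1 A_65_P09246 and Mtfp1 A_55_P2716731. The cause of these shifts was not tested.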
